A study of Mus musculus with 36 samples.

Results

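The 2 ends of the mouse small intestine were compared by array: the ileum, the stretch that ends at the junction with caecum and colon, against the duodenum, the first 2 to 3 cm beyond the stomach. Every array titled Ileum and every array titled Duodenum was used, 9 a segment and 18 of the 36 arrays of the series. Each segment had 3 pools, and each pool was read on 3 array sets (A, B and C) that carry different probe sets. All groups came from male Hsd:ICR(CD-1) mice, an outbred stock, 8 weeks old and on a standard chow, with no treatment or engineered allele named. A pool joins 10 mice, and the whole segment was taken, so each value averages epithelium, immune cells, muscle, nerves and any attached tissue. In such bulk RNA, fewer cells of a type and less RNA per cell cannot be told apart. Pooling averages over mice, so the p-values speak for pools and not for single mice. The 9 jejunum arrays, from the middle of the small intestine, show where that segment lies, and the 9 colon arrays add to the estimate of spread.

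The small intestine divides its work along its length. The duodenum receives gastric acid, bile and pancreatic juice, secretes mucus and bicarbonate from Brunner's glands in its wall, and is known as the main site of iron and of vitamin D dependent calcium uptake. Fat, sugars and folate are taken up mostly in the proximal bowel, while the ileum reclaims conjugated bile acids and the vitamin B12 bound to intrinsic factor, and returns a hormonal signal, Fgf15, to the liver.

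The deposited values are intensities on a linear scale, and differences are given as ileum minus duodenum on log2(intensity + 16), with the standard error of the fit. A probe set or gene was called at an adjusted p below 0.05 in limma's moderated test, with Benjamini-Hochberg adjustment over the 3 array sets together. Median intensities of the duodenum and ileum arrays ran from 58.4 to 109, so values below these medians lie at the dim end of the scale, and differences against them are understated. One array has labels that disagree: it is titled as pool 3 of the duodenum on set C, while its source name says jejunum. On it the gland product Gkn3 read 21071 units, against 46.3 to 173 in jejunum, and the pancreatic genes Cpa1 and Gp2 read 13113 and 2235, against 26.6 to 41.9 and 25.9 to 34.9. It was kept as duodenum. Leaving it out gave 667 called probe sets, and counting it as jejunum gave 657, against 671. The 18S ribosomal control was low in ileum pools 1 and 3 and jejunum pools 2 and 3 on every array set. Ileum pools 1 and 3 of set A, for example, read 717 and 1541 units. Ileum pool 2 read 10683 there, and the duodenum arrays 11281 to 20058. On set A, duodenum arrays gave a 3' to 5' signal ratio of the actin control of 1.41 to 1.84 and ileum arrays one of 1.14 to 1.20, and no set showed an overlap. RNA quality and segment cannot be told apart in that respect.

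Of 36701 probe sets, 671 (1.83%) differed between ileum and duodenum. In the ileum, 315 (0.858%) were higher and 356 (0.970%) lower, and 582 (1.59%) differed at least 2-fold. Centring each array on its median instead gave 204 higher and 349 lower. The duodenum held the larger differences: of 85 probe sets that differed at least 10-fold, 69 were lower in the ileum and 16 higher. The 3 ileum arrays stood clear of the 3 duodenum arrays for all 671 called probe sets, and for 5489 (15%) of all probe sets. A call itself favours such a separation, and noise alone also separates some probe sets when there are 3 arrays a side. With each of 15964 genes represented by its brightest probe set on the first array set that carried it, 477 genes (2.99%) were called, 229 higher (1.43%) and 248 lower (1.55%), and 394 (2.47%) by at least 2-fold. The median difference over all genes was 0.043. Leaving out ileum pool 3 brought the called probe sets to 401, and leaving out duodenum pool 3 to 457. In the samples with high 18S signal alone, 383 probe sets were called; with 1 ileum pool that test has little power, so a missed threshold there says nothing of RNA quality, and differences are given beside each such value.

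**Figure D1:**
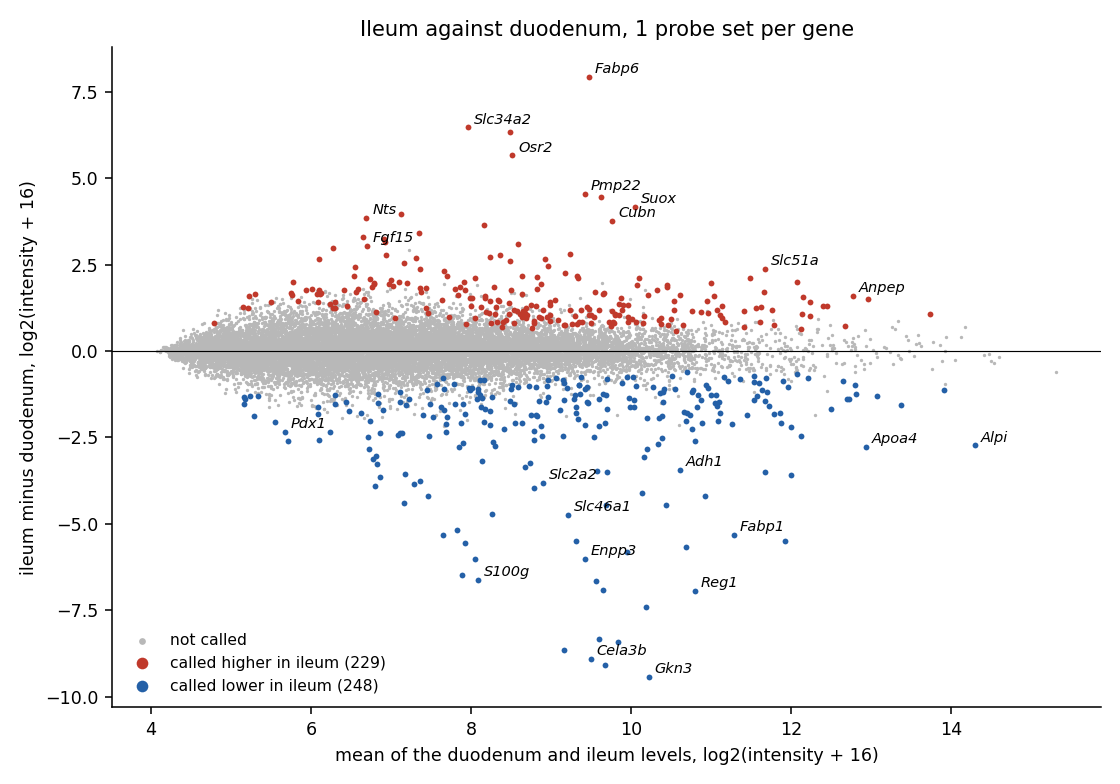
Ileum minus duodenum difference, on log2(intensity + 16), against the mean level of the 2 segments for 15964 genes with 1 probe set each. Red points are the 229 genes called higher in the ileum, blue points the 248 called lower, and grey points were not called. The falls reach -9.44 (Gkn3) and the rises 7.92 (Fabp6).

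The bile acid recovery list had the highest median of the 35 gene lists. Of its 9 measured members, 4 were higher in the ileum and 1 lower, where 1.43% and 1.55% of all genes were. Their median difference was 1.33 against 0.043 over all genes. The counts of every list below stand against the same shares. Of the 8251 genes represented on array set A, as many list members are, 4.07% were called, 166 higher and 170 lower. Fabp6, the ileal bile acid binding protein of the enterocyte cytosol, read 11.6, 56.5 and 25.7 units in duodenum pools 1 to 3, 60.0, 40.0 and 47.7 in jejunum and 9403, 9622 and 12968 in ileum. All ileum pools lay far above every duodenum and jejunum pool, which overlapped each other. The difference was 7.92 ± 0.28 (SE, n = 3 pools a segment), or 242-fold on that scale, with an adjusted p of 5.21e-10. A second probe set for Fabp6 stayed near the floor in both segments and gave -0.10.

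Both subunits of the basolateral bile acid exporter rose. Slc51a read 1452, 1318 and 1477 units in duodenum and 6468, 8104 and 7687 in ileum, a difference of 2.37 ± 0.16 (adjusted p = 2.23e-07). Slc51b read 749.5, 539.6 and 871 in duodenum and 2617, 2067 and 3231 in ileum, a difference of 1.85 ± 0.24 (adjusted p = 0.000321). For both genes the lowest ileum pool was above the highest duodenum pool. The hormone gene Fgf15 was at 18.4, 17.9 and 19.1 units in duodenum, the dim end of the scale, and at 364, 132 and 397 in ileum, with ileum pool 2 well below the other ileum pools and still above all duodenum pools; its difference was 3.05 ± 0.37 (adjusted p = 0.000188). Slc10a2, the apical bile acid carrier, was dim throughout, at 1.1, 16.9 and 16.3 units in duodenum and 40.9, 45 and 68 in ileum; the pools did not overlap, and its 1.33 ± 0.34 did not pass (adjusted p = 0.0662), although it did with an offset of 64 (adjusted p = 0.0318) and with adjustment within array sets (adjusted p = 0.0366). The bile acid receptor Nr1h4 gave 0.65 ± 0.20 (adjusted p = 0.158) and its target Nr0b2 -0.68 ± 0.38 (adjusted p = 0.554). Of the efflux pumps, Abcc3 fell (-1.22 ± 0.21, adjusted p = 0.00444), from 2125, 1935 and 1865 units to 878, 759.8 and 889, while Abcc2 gave -0.71 ± 0.28 (adjusted p = 0.317).

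The promoters of Fabp6 and Slc51b are shown because both genes are textbook targets of Nr1h4, whose known element is an inverted repeat with 1 base between its arms. The RefSeq sequences on GRCm38.p6 run from 250 bases before the annotated start to 50 after it (Fabp6, chr11:43601513-43601812, minus strand; Slc51b, chr9:65422724-65423023, minus strand), and capitals mark matches, on either strand, to GGTNA followed by any 1 base and then TNACC.
Fabp6: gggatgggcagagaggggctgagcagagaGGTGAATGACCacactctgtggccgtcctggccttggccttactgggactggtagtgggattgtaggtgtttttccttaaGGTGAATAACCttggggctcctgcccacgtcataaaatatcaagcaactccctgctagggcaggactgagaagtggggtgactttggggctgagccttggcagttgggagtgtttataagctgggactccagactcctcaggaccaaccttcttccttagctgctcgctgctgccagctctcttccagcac
Slc51b: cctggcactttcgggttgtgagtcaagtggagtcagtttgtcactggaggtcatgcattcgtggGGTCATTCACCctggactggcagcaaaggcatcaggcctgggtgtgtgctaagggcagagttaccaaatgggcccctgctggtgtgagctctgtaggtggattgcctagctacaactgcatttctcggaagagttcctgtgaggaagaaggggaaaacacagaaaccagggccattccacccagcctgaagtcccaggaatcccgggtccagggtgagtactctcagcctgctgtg
Fabp6 held 2 matches, beginning 221 and 141 bases before the start, and Slc51b held 1, at 186 bases before it. A gene with several promoters was counted once, if any of them held a match. Such a match was found in 33 of 12681 measured genes with a promoter (0.26%). Of the genes at least 2-fold higher in the ileum, 2 of 134 (1.49%) held one, and 2 of 183 (1.09%) of the lower ones. In the bile acid list, 2 of the 7 genes with a promoter held one. A match describes the letters only, and binding was not measured here.

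Other large rises were spread over several functions. Slc34a2, the sodium phosphate cotransporter of the brush border, read 10.3, 13.3 and 7.7 units in duodenum, 213, 142 and 123 in jejunum and 2585, 2593 and 1856 in ileum, 3 levels with no overlap (6.47 ± 0.33, adjusted p = 1.54e-08). Tmigd1, an immunoglobulin-domain protein of epithelial cell contacts, read 20.2, 15.8 and 29.5 in duodenum, 22.2, 45.6 and 22.5 in jejunum and 3846, 1468 and 4727 in ileum (6.33 ± 0.37, adjusted p = 2.81e-08). The zinc-finger transcription factor Osr2 read 34.8, 28 and 42.7 in duodenum, 448, 1070.3 and 626 in jejunum and 2389, 2291 and 3071 in ileum (5.66 ± 0.31, adjusted p = 1.27e-08). In Tmigd1 only the ileum stood apart, and in Osr2 the jejunum lay apart from both ends. Suox, the mitochondrial enzyme that oxidises sulfite, rose from 292, 205 and 201 to 4584, 3768 and 5052 units (4.18 ± 0.22, adjusted p = 7.72e-09), with the jejunum at 255, 253 and 318, overlapping the duodenum. The tetraspan membrane protein gene Pmp22 rose by 4.55 ± 0.33 (adjusted p = 5.72e-07), the apoptosis-family member Bcl2l15 by 4.46 ± 0.38 (adjusted p = 2.72e-06), and Fam151a by 3.96 ± 0.41 (adjusted p = 3.6e-05); a dim second Bcl2l15 probe set gave -0.17. The acute phase gene Saa2 rose by 3.64 ± 0.40 (adjusted p = 6.72e-05), from 74.8, 97.9 and 29 units to 1215, 766 and 917.

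Map3k6, a stress kinase, rose by 3.29 ± 0.31 (adjusted p = 1.11e-05) and Gsdme, a pore-forming gasdermin, by 3.23 ± 0.31 (adjusted p = 1.58e-05); for both, a dim second probe set did not follow (-0.21 and -0.05). Spsb4 rose by 3.16 ± 0.48 (adjusted p = 0.00253), from 39.4, 15.1 and 21.1 to 330.3, 313 and 381 units, with pools that did not overlap. Mgat4c, which encodes an N-glycan branching enzyme, rose by 3.10 ± 0.58 (adjusted p = 0.0114); its pools were uneven, at 32.6, 87.7 and 239 units in duodenum and 804, 496 and 1927 in ileum. Significance was lost for Mgat4c without ileum pool 3 (adjusted p = 0.0657). With samples blocked by 18S class, Mgat4c missed the threshold (adjusted p = 0.0984). Among high-18S samples, with ileum pool 2 alone, Spsb4 gave 3.04 and missed the threshold (adjusted p = 0.119).

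**Figure D2:**
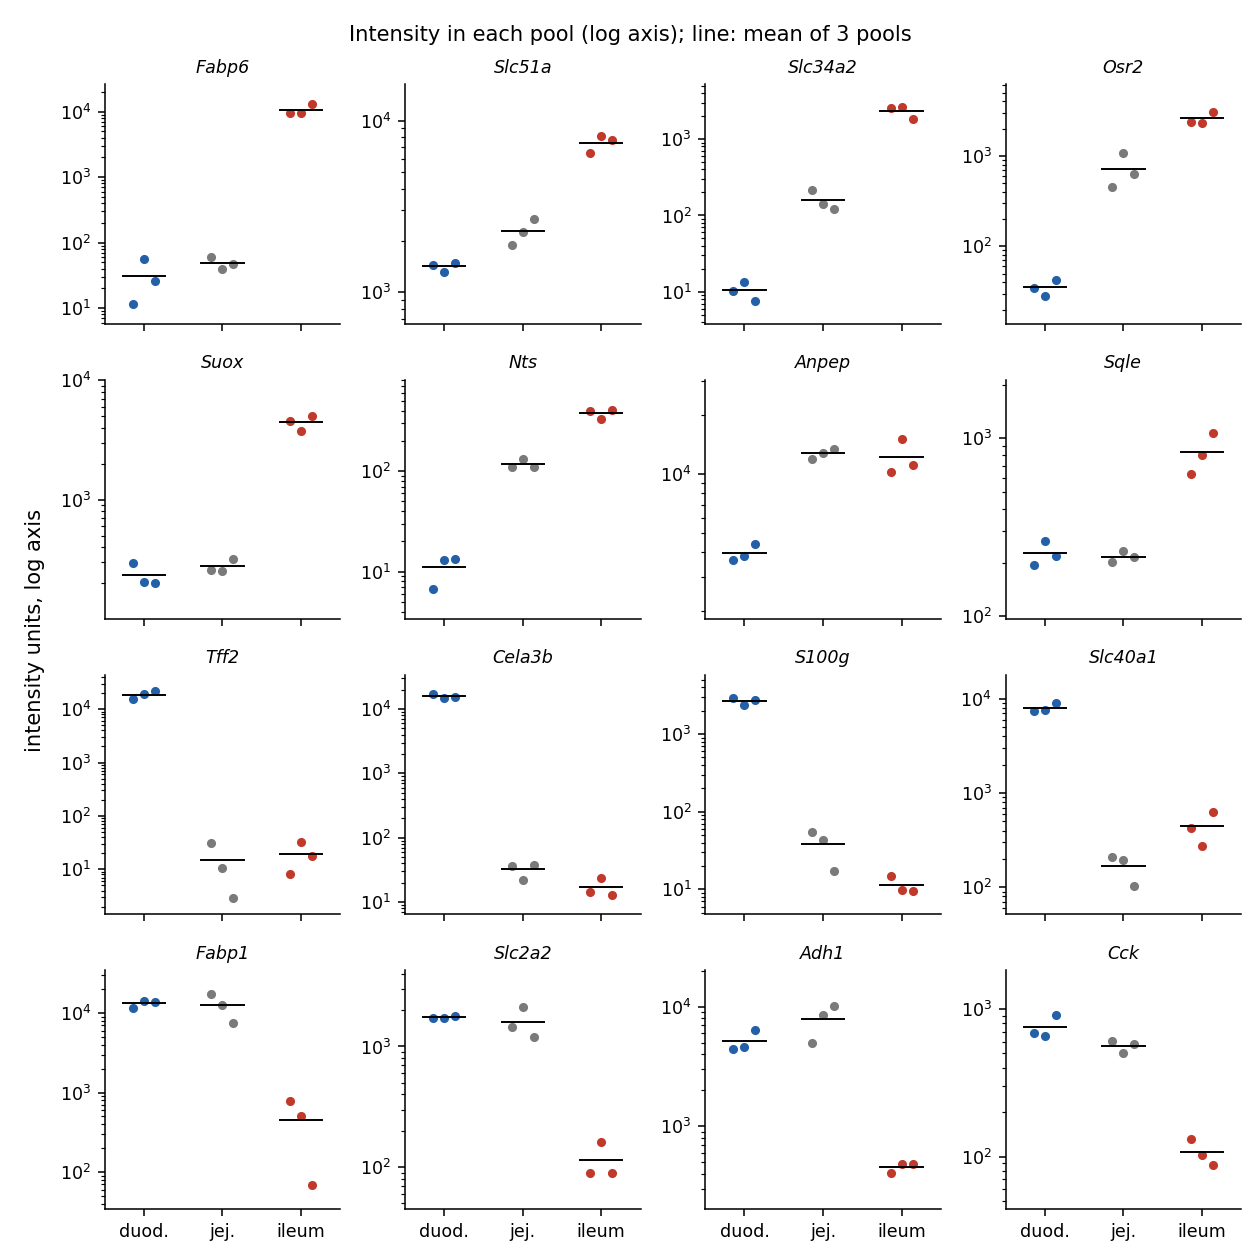
Intensity of 16 genes in each pool of duodenum (blue), jejunum (grey) and ileum (red), on a log axis of intensity units that differs between panels; each point is 1 pool and the line is the mean of 3. Fabp6 and Suox are high in the ileum alone, Tff2, Cela3b, S100g and Slc40a1 in the duodenum alone, and Fabp1, Slc2a2, Adh1 and Cck in duodenum and jejunum, while Anpep is low in the duodenum alone, among these 3 segments.

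For 8 genes of vitamin B12 and protein uptake through cubilin, the list median was 0.35. Of them, 1 was higher in the ileum, where 1.43% of all genes were, and none lower. That gene was Cubn itself, the receptor for intrinsic factor with vitamin B12, at 88.3, 231 and 380.2 units in duodenum and 2494, 2706 and 3809.8 in ileum (3.77 ± 0.44, adjusted p = 0.000114). The jejunum, at 1103, 3703 and 2954 units, overlapped the ileum and not the duodenum, and a dim second probe set gave -0.13. Amn, the membrane partner of cubilin, gave 0.48 ± 0.24 (adjusted p = 0.479), with the jejunum at 7095, 15599.9 and 11994 units above both the duodenum (3324 to 4551) and the ileum (4776 to 5770.5). Tcn2, the plasma carrier of the vitamin, gave 0.59 ± 0.16 (adjusted p = 0.0999) and passed under quantile normalization (adjusted p = 0.0113), while a second probe set gave -0.02.

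The digestive enzymes of the brush border changed in both directions: of 14 measured, 4 were higher in the ileum and 4 lower, with a list median of -0.24. The 4 that rose are peptidases. Aminopeptidase N, Anpep, read 3668, 3841 and 4414 units in duodenum and 10266, 15154 and 11203 in ileum (1.60 ± 0.17, adjusted p = 3.87e-05). The glutamyl aminopeptidase Enpep rose by 1.28 ± 0.21 (adjusted p = 0.00322) and the meprin subunits Mep1a and Mep1b by 1.58 ± 0.24 (adjusted p = 0.00141) and 1.04 ± 0.20 (adjusted p = 0.00922). The 4 that fell are 2 alkaline phosphatases and 2 disaccharidases. Akp3 fell from 5561, 6244 and 9274 units to 51.8, 124 and 16.8 (-6.66 ± 0.58, adjusted p = 5.23e-06), and Alpi from 40842, 54263 and 61075 to 7866, 8452 and 6968 (-2.73 ± 0.20, adjusted p = 4e-07); probes for these close relatives may share signal. Trehalase, Treh, was at 5256, 2796 and 3819 units in duodenum and 844, 942 and 872 in ileum (-2.09 ± 0.29, adjusted p = 0.000499). Lactase, Lct, was at 3024, 2959 and 3263 in duodenum and 1306, 1213 and 608 in ileum (-1.62 ± 0.34, adjusted p = 0.021), with no overlap. Calls did not hold for Lct without duodenum pool 1, 2 or 3 or ileum pool 3 (adjusted p = 0.0613 to 0.12) and Mep1b without duodenum pool 2 or ileum pool 3 (adjusted p = 0.0593). The call was lost after blocking by 18S class for Lct and Mep1b (adjusted p = 0.066 to 0.114). With only the high-18S samples, Treh gave -2.00 and missed the threshold (adjusted p = 0.0826).

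Among 13 amino acid and peptide carriers, 2 were higher in the ileum and none lower, with 12 positive differences and a median of 0.36. Slc1a1, the glutamate and aspartate carrier, read 40.8, 38.5 and 14.7 units in duodenum, 50.5, 36.6 and 44.3 in jejunum and 281, 242 and 377 in ileum (2.77 ± 0.31, adjusted p = 7.35e-05), so that only the ileum stood apart. Slc7a9, the light chain of the cystine and dibasic amino acid carrier, rose by 0.96 ± 0.17 (adjusted p = 0.00642). Slc7a7 (0.67 ± 0.20, adjusted p = 0.138) and Slc43a2 (0.36 ± 0.23, adjusted p = 0.646) did not pass; both were highest in the jejunum. Blocking by 18S class took Slc7a9 past 0.05 (adjusted p = 0.0674).

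Ion and acid-base carriers also split, with 5 of 22 higher in the ileum, 3 lower and a median of -0.01. Beside Slc34a2, the rises were Slc5a12 and Slc13a2, carriers of lactate and of citrate and succinate, and the carbonic anhydrases Car4 and Car12. Slc5a12 read 9.4, 15.6 and 5.5 units in duodenum, 716, 909.9 and 490.4 in jejunum and 252, 71.9 and 167 in ileum (2.66 ± 0.51, adjusted p = 0.00944). Slc13a2 read 1077, 1689 and 1332 in duodenum, 5832, 13725 and 11225 in jejunum and 4806, 7104 and 5928 in ileum (2.11 ± 0.28, adjusted p = 0.000276). In Slc5a12 the jejunum exceeded the ileum in every pool, and in Slc13a2 its pools reached above and into the ileum range. Car4 rose by 1.68 ± 0.29 (adjusted p = 0.00423) and Car12 by 1.24 ± 0.26 (adjusted p = 0.0194); a dimmer probe set for Car4 gave -0.22. The falls were Car2, the cytosolic carbonic anhydrase, from 1481, 1219 and 1954 units to 54.5, 45.8 and 30.9 (-4.71 ± 0.23, adjusted p = 7.43e-09), the sodium-hydrogen exchanger Slc9a3 (-1.62 ± 0.37, adjusted p = 0.0335), and the anion exchanger Slc26a6 (-1.38 ± 0.21, adjusted p = 0.00132). The test no longer called Slc5a12 without ileum pool 1 or 3 (adjusted p = 0.0545 to 0.0657), Car12 without duodenum pool 2 or 3 or ileum pool 1 or 3 (adjusted p = 0.0565 to 0.12) and Slc9a3 without duodenum pool 1 or 3 or ileum pool 2 or 3 (adjusted p = 0.0572 to 0.182). In the fit blocked by 18S class, Slc5a12, Car4, Car12 and Slc9a3 did not pass (adjusted p = 0.0553 to 0.131). From the high-18S samples, 1 ileum pool among them, Slc26a6 gave -1.36 and missed the threshold (adjusted p = 0.0832). Slc5a8, a second lactate and short-chain fatty acid carrier, was near the floor in the duodenum (8.5, 6.6 and 15 units) and at 328, 83.8 and 231 in ileum (2.98 ± 0.46, adjusted p = 0.00132). In the high-18S samples alone, with 1 ileum pool, Slc5a8 gave 1.95 and missed the threshold (adjusted p = 0.175).

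The falls with the largest size were in pancreatic and gland products. Of 19 measured exocrine pancreas genes, 16 were lower in the ileum and none higher, with a median of -5.50. Their summed intensity was 135155 to 138219 units over the duodenum pools, 2624 to 4221 in jejunum and 2491 to 4296 in ileum. The pancreatic elastase gene Cela3b read 16844, 14852 and 15249 units in duodenum and 14.4, 23.6 and 13.1 in ileum (-8.90 ± 0.29, adjusted p = 1.17e-10). The trypsinogen gene Prss2 read 9055, 12783 and 12432 in duodenum and 5.7, 18.2 and 14.3 in ileum (-8.65 ± 0.46, adjusted p = 2.16e-08). The ileum values lie at the floor of the arrays, and the jejunum values of both genes (22.5 to 38.3 and 5.6 to 10.4 units) do too.

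The carboxypeptidases Cpa1 and Cpb1 gave -8.42 and -8.33, elastase Cela2a -7.40, chymotrypsin Ctrc -6.92, the lipases Pnliprp1 and Cel -6.47 and -5.81, and the chymotrypsinogen Ctrb1 -5.50. The zymogen granule genes Gp2 and Sycn gave -5.50 and -5.55. All of these were falls, with limma adjusted p of 1.41e-09 to 5.16e-05. The islet hormone insulin, Ins2, moved with them, from 2185, 1976 and 1646 units in duodenum to 2.6, 2.6 and 3.6 in jejunum and 1.7, 51.9 and 6.2 in ileum (-6.02 ± 0.47, adjusted p = 1.38e-06). One dim second probe set, for Pnliprp1, gave 0.93. Pancreatic transcripts were thus at a high level in every duodenum pool; their source, and their part in the other falls, was not tested.

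Products of the gastric surface and of Brunner's glands fell likewise: 5 of 11 measured were lower in the ileum and none higher, with a median of -1.58. Gkn3, a gastrokine, read 46645, 29031 and 21071 units in duodenum, 53.9, 46.3 and 173 in jejunum and 27.8, 30.8 and 25.5 in ileum (-9.44 ± 0.44, adjusted p = 2.17e-08). The trefoil factor Tff2 read 15278, 19093 and 21876 in duodenum, 31.4, 10.5 and 2.9 in jejunum and 8.3, 32.9 and 17.4 in ileum (-9.09 ± 0.41, adjusted p = 4.55e-09). Every duodenum pool was far above the other pools for both genes; Tff2 was near the floor in jejunum and ileum, and Gkn3 was low there, with jejunum pool 3 the highest. Gkn2 read 5001, 1090.0 and 6766 units in duodenum and 188, 126 and 111 in ileum (-4.44 ± 0.49, adjusted p = 4.28e-05), and Tff1, the trefoil factor of gastric surface cells, 3786, 869 and 5827 in duodenum and 244, 519.9 and 368 in ileum (-2.84 ± 0.50, adjusted p = 0.00558). In both, duodenum pool 2 was far below the other duodenum pools and still above every ileum pool. The cell-surface mucin Muc1 fell (-2.35 ± 0.32, adjusted p = 0.000571). With samples blocked by 18S class, Tff1 missed the threshold (adjusted p = 0.071).

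The Reg lectins, small secreted C-type lectins of pancreas and gut, moved both ways, with 2 of 7 lower and 2 higher in the ileum. Reg1 fell from 15555, 20973 and 22689 units in duodenum through 6357, 3169.8 and 1823 in jejunum to 147, 177 and 108 in ileum (-6.95 ± 0.34, adjusted p = 8.65e-09), 3 levels that did not overlap. Reg2 fell (-3.05 ± 0.43, adjusted p = 0.000824), while a dim second probe set gave 0.88. The antibacterial lectin Reg3g rose from 5220.1, 5775 and 3176 to 13104, 16247 and 10395 units (1.51 ± 0.24, adjusted p = 0.00217). Reg3a, at 815, 359 and 426 units in duodenum and 2368, 1231 and 1115 in ileum, rose by 1.54 ± 0.30 (adjusted p = 0.0115), and its jejunum pools, at 3936, 2898 and 2636, lay above both ends. Values above 0.05 were found for Reg3a without duodenum pool 2 or 3 or ileum pool 1 (adjusted p = 0.0565 to 0.0709). The call was lost after blocking by 18S class for Reg3a (adjusted p = 0.0579).

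Several iron uptake genes were lower in the ileum. Of 12 iron genes, 5 were lower and none higher, with a median of -0.44. Slc40a1, ferroportin, the basolateral iron exporter, read 7407, 7693 and 8952 units in duodenum, 208, 193 and 104 in jejunum and 431, 276 and 636 in ileum (-4.19 ± 0.32, adjusted p = 5.72e-07). The jejunum was the lowest of the 3 segments, below every ileum pool. Cybrd1, the ferric reductase of the brush border, fell from 706, 916 and 776 units to 144, 240.0 and 154 (-2.09 ± 0.27, adjusted p = 0.000241), and Slc11a2, the apical divalent metal carrier, from 768, 1189 and 980.2 to 173, 199 and 242 (-2.16 ± 0.25, adjusted p = 8.87e-05); a second Slc11a2 probe set gave 0.27. Slc46a1, the proton-coupled folate carrier that was first described as a haem carrier, read 3572, 2705 and 2776 in duodenum and 93, 126 and 78.9 in ileum (-4.73 ± 0.32, adjusted p = 3.47e-07). In the jejunum it read 1406, 3259.7 and 2755, reaching into the duodenum range and below it. Ferritin heavy chain, Fth1, fell (-1.55 ± 0.19, adjusted p = 0.000246), while another bright probe set, with means of 2565 and 6387 units, gave 1.29 without passing (adjusted p = 0.161). The other 7 genes, with the basolateral ferroxidase Heph (0.25) among them, gave -0.81 to 0.61. Other probe sets for Cybrd1 were called as well (-3.77 and -3.76, adjusted p = 0.00172 and 4.01e-05). Among high-18S samples, with ileum pool 2 alone, Cybrd1 gave -1.66 and missed the threshold (adjusted p = 0.0519).

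For calcium, 2 of 6 genes were lower and none higher, with a median of -0.26. S100g, calbindin D9k, the cytosolic calcium binding protein of the enterocyte, read 2878, 2398 and 2702 units in duodenum, 54.1, 42.5 and 17.4 in jejunum and 15, 9.9 and 9.6 in ileum (-6.61 ± 0.31, adjusted p = 7.32e-09). Nearly all of its signal was in the duodenum, and the other segments were near the floor. The vitamin D receptor Vdr fell (-0.93 ± 0.16, adjusted p = 0.00557), from 1480.1, 1148 and 1246 units to 765, 587 and 659.9, with no overlap.

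Lipid absorption genes were lower in the ileum where they were called at all: 6 of 20 lower, none higher, median -0.48. Fabp1, the liver-type fatty acid binding protein, read 11584, 14111 and 13922 units in duodenum, 17310.1, 12647 and 7597 in jejunum and 786, 505 and 68 in ileum (-5.33 ± 0.56, adjusted p = 4.28e-05). Ileum pool 3 was far below the other ileum pools, and all were below every proximal pool. The apolipoproteins of chylomicrons Apoc2 and Apoa4 fell (-3.50 and -2.77, adjusted p = 2.72e-06 and 0.00103), Apoa4 from 14389.8, 20910.2 and 22178 units to 3562, 4631 and 1250.0. Apoa1, the apolipoprotein they share the particle with, was at 18909.8, 30017 and 29632 units in duodenum and 20018, 32138 and 18383 in ileum, with overlapping pools (-0.17 ± 0.26, adjusted p = 0.89); the sign of this small difference turned under quantile normalization (0.03) and after blocking by 18S class (0.23). The lipoprotein receptor Scarb1 fell (-3.23 ± 0.23, adjusted p = 5.72e-07), the retinol binding protein Rbp2 (-2.26 ± 0.20, adjusted p = 5.38e-06), and the acyl-CoA synthetase Acsl5 (-0.92 ± 0.18, adjusted p = 0.0111). The threshold was missed by Acsl5 without duodenum pool 3 or ileum pool 1 or 3 (adjusted p = 0.0604 to 0.079). In the fit blocked by 18S class, Acsl5 did not pass (adjusted p = 0.0931). With only the high-18S samples, Apoa4 gave -2.02 and missed the threshold (adjusted p = 0.0623). One of 10 genes of fatty acid oxidation and ketone synthesis fell, the thiolase Acaa2 (-1.40 ± 0.14, adjusted p = 3.09e-05), and the median of that list was -0.36.

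Sugar genes followed the same direction, with 5 of 10 lower, none higher and a median of -0.86. Slc2a2, the basolateral carrier for glucose and fructose, read 1729, 1733 and 1772 units in duodenum and 90.2, 161 and 89.5 in ileum (-3.81 ± 0.25, adjusted p = 2.43e-07). Fbp1, the gluconeogenic fructose-1,6-bisphosphatase, read 3291, 3451 and 3095 in duodenum and 398, 394 and 340.0 in ileum (-3.07 ± 0.18, adjusted p = 5.71e-08). For each, every ileum pool was far below every duodenum pool. The apical fructose carrier Slc2a5 fell (-2.26 ± 0.31, adjusted p = 0.000571), while 2 dimmer probe sets gave 0.07 and 0.34. Pyruvate kinase Pklr fell (adjusted p = 0.0127), and the sodium-glucose carrier Slc5a1 (-0.71 ± 0.17, adjusted p = 0.0476), from 3004, 4041 and 4294 units to 2088, 2355 and 2425. Significance was lost for Pklr without duodenum pool 2 or 3 or ileum pool 1 or 3 (adjusted p = 0.0627 to 0.0728) and Slc5a1 without duodenum pool 2 or 3 or ileum pool 1, 2 or 3 (adjusted p = 0.0872 to 0.204). With samples blocked by 18S class, Pklr and Slc5a1 missed the threshold (adjusted p = 0.108 to 0.165). A brighter Slc5a1 probe set, with means of 17044 units in duodenum and 6874 in ileum, was called in the main fit (-1.31, adjusted p = 0.0105). A second Pklr probe set gave -0.18 and was not called. From the high-18S samples, 1 ileum pool among them, Slc2a5 gave -2.04 and missed the threshold (adjusted p = 0.074).

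Of 26 detoxification enzymes and drug carriers, 10 were lower in the ileum and none higher, with a median of -0.84. The cytochrome Cyp2b10 read 2138, 2111 and 3299.5 units in duodenum, 5031, 4854 and 6211 in jejunum and 212, 272 and 154 in ileum (-3.47 ± 0.23, adjusted p = 2.23e-07). The alcohol dehydrogenase Adh1 read 4413, 4558 and 6431 in duodenum, 4981, 8592 and 10104 in jejunum and 403, 483 and 478 in ileum (-3.43 ± 0.25, adjusted p = 6.39e-07). The jejunum overlapped the duodenum in Adh1 and exceeded it in Cyp2b10, and the ileum was far below both segments. Cyp3a11 fell (-2.52 ± 0.32, adjusted p = 0.000304). Among glutathione transferases, Gsta4 fell (-2.74 ± 0.25, adjusted p = 9.39e-06), Gstm1 (-2.47 ± 0.26, adjusted p = 3.65e-05, with other probe sets at 0.78 and 0.12) and Gstm3 (-2.19 ± 0.32, adjusted p = 0.00108); Gstm6 and Gsta2, outside the list, fell too (-3.91 and -3.76, adjusted p = 5.72e-07 and 5.59e-05). The 10 that fell are all enzymes, and the efflux pumps Abcb1a and Abcg2 gave 1.69 ± 0.45 (adjusted p = 0.0859) and 0.72 ± 0.24 (adjusted p = 0.217). Abcb1a passed as a rise with adjustment within array sets (adjusted p = 0.0481) and without duodenum pool 3 (adjusted p = 0.0483). Members of the transferase and cytochrome families are close in sequence, so probes may share signal between them. In the high-18S samples alone, with 1 ileum pool, Gstm3 gave -1.84 and missed the threshold (adjusted p = 0.0511). The leave-out of single pools left 8 to 10 of the list called.

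The promoters of Fbp1 and Adh1 are shown as examples of proximal genes that hold AGATAA, a motif of GATA factors, which are known regulators of proximal enterocyte genes (RefSeq, GRCm38.p6; Fbp1, chr13:62888233-62888532, minus strand; Adh1, chr3:138277335-138277634, plus strand; capitals mark the match).
Fbp1: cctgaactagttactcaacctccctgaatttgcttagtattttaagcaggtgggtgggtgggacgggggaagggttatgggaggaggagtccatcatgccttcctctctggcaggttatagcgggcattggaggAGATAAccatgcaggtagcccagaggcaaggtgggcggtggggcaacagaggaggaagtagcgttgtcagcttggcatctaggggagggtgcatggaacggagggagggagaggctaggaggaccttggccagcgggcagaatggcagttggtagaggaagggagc
Adh1: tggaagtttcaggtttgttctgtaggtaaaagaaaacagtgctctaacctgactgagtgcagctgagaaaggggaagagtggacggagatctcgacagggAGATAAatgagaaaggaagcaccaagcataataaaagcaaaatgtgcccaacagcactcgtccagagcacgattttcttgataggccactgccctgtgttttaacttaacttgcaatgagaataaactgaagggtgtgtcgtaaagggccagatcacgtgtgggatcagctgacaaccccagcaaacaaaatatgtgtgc
The match begins 116 bases before the start in Fbp1 and 150 before it in Adh1. On either strand, AGATAA was found in 35 of 183 genes (19.1%) lower in the ileum by at least 2-fold. It was found in 14 of 134 (10.4%) of those higher and in 9.11% of all 12681 genes with a promoter. Without the pancreas, gland and Reg lists the share among the lower genes was 17.1%. These shares were not tested, and GATA factor binding was not measured.

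Papss2, Enpp3 and Cym, outside the lists, fell as well. Papss2, which makes the sulfate donor PAPS, read 4089.8, 4513 and 5383 units in duodenum, 1302, 1198 and 614 in jejunum and 264, 231 and 268 in ileum (-4.11 ± 0.24, adjusted p = 5.64e-08), a stepwise fall with no overlap. The ectonucleotidase Enpp3 read 5239.7, 5217 and 5102 in duodenum, 1841, 1989 and 1424 in jejunum and 35.1, 135 and 52 in ileum (-6.01 ± 0.41, adjusted p = 1.92e-07), also stepwise. Cym, the milk-clotting protease chymosin, was at 917, 626 and 649.8 units in duodenum and 27.8, 32.7 and 15.4 in ileum (-4.18 ± 0.33, adjusted p = 1.16e-06), and the jejunum overlapped the duodenum. Of 11 arginine and urea cycle genes, 2 were lower and 1 higher. Mitochondrial arginase Arg2 fell from 8054, 6572 and 8281 to 2359, 1804 and 1303 units (-2.09 ± 0.21, adjusted p = 2.83e-05), carbamoyl phosphate synthetase Cps1 gave -1.05 ± 0.21 (adjusted p = 0.0172) and proline dehydrogenase Prodh 1.20 ± 0.25 (adjusted p = 0.0188). Calls did not hold for Cps1 without duodenum pool 2 or 3 or ileum pool 1, 2 or 3 (adjusted p = 0.0572 to 0.0872) and Prodh without duodenum pool 3 or ileum pool 1, 2 or 3 (adjusted p = 0.0608 to 0.101). The call was lost after blocking by 18S class for Cps1 and Prodh (adjusted p = 0.116 to 0.12). A second Prodh probe set was also called in the main fit (1.46, adjusted p = 0.0143).

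Of 16 genes of the gut endocrine cells, 1 was higher in the ileum, 3 were lower, 12 were not called and the median was -0.19. Neurotensin, Nts, read 6.8, 13.2 and 13.4 units in duodenum, 110.5, 133 and 110.4 in jejunum and 394, 333 and 405 in ileum (3.86 ± 0.33, adjusted p = 2.67e-06), 3 levels with no overlap, while a second, dim probe set gave -0.19. Cholecystokinin, Cck, which empties the gallbladder, fell from 692, 652 and 918 units through 605, 504 and 578 to 132, 102 and 87.7 (-2.64 ± 0.28, adjusted p = 4.73e-05), and the incretin Gip from 920.4, 1070.3 and 877 through 836, 956 and 954 to 478, 407 and 296 (-1.27 ± 0.22, adjusted p = 0.00479). The jejunum overlapped the duodenum in Gip and lay between the ends in Cck. The granule protein Chgb fell (-1.38 ± 0.20, adjusted p = 0.00126), while a dimmer probe set gave 0.73. The distal hormone Pyy was at 471, 226 and 485 units in duodenum and 1355, 1653 and 1540.2 in ileum, and its 1.97 ± 0.54 did not pass (adjusted p = 0.0941) although the pools did not overlap; with the duodenum and ileum arrays alone it passed (adjusted p = 0.00225). Proglucagon, Gcg, gave 1.11 ± 0.35 (adjusted p = 0.173). Among high-18S samples, with ileum pool 2 alone, Gip gave -1.19 and missed the threshold (adjusted p = 0.124).

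Cholesterol synthesis genes were higher in the ileum: 7 of 20 rose, none fell, 16 had positive differences and the median was 0.98. Squalene epoxidase, Sqle, read 194, 267 and 219 units in duodenum, 201, 231 and 216 in jejunum and 626, 809.6 and 1064 in ileum (1.79 ± 0.21, adjusted p = 0.000124), with only the ileum apart. Hmgcs1, the synthase at the head of the pathway, read 186, 165 and 173 in duodenum, 146, 122 and 91.4 in jejunum and 499.9, 381 and 723 in ileum (1.49 ± 0.26, adjusted p = 0.00548), with the jejunum lowest. The cholesterol carrier Stard4 rose by 1.91 ± 0.27 (adjusted p = 0.000582), and its jejunum pools, at 1417, 3363 and 2253 units, overlapped the ileum. Mevalonate diphosphate decarboxylase Mvd rose by 2.09 ± 0.43 (adjusted p = 0.0176), the sterol dehydrogenase Nsdhl by 1.15 ± 0.22 (adjusted p = 0.0124), squalene synthase Fdft1 by 1.07 ± 0.26 (adjusted p = 0.0467) and Fdps by 1.02 ± 0.23 (adjusted p = 0.0316). Other probe sets did not all follow: a brighter one for Mvd, on array set C, gave 0.03, and the 5 others for Fdps gave -1.32 to 0.91. The test no longer called Mvd without duodenum pool 2 or 3 or ileum pool 2 or 3 (adjusted p = 0.0652 to 0.079), Nsdhl without duodenum pool 1 or ileum pool 3 (adjusted p = 0.0623 to 0.0672), Fdps without duodenum pool 1 or 2 or ileum pool 2 or 3 (adjusted p = 0.106 to 0.167) and Fdft1 without duodenum pool 1, 2 or 3 or ileum pool 1, 2 or 3 (adjusted p = 0.0689 to 0.212). With samples blocked by 18S class, Mvd, Fdps and Fdft1 missed the threshold (adjusted p = 0.136 to 0.256). With only the high-18S samples, Hmgcs1 and Nsdhl gave 1.06 and 1.23 and missed the threshold (adjusted p = 0.0826 to 0.18). Median centring left 4 of the list called, and leaving out single pools left 3 to 6.

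Hmgcs1 and Mvd promoters are shown for CCAAT, the box bound by NF-Y, a known partner of the sterol regulatory factors (RefSeq, GRCm38.p6; Hmgcs1, chr13:119690101-119690400, plus strand; Mvd, chr8:122443373-122443672, minus strand; capitals mark CCAAT or its reverse complement).
Hmgcs1: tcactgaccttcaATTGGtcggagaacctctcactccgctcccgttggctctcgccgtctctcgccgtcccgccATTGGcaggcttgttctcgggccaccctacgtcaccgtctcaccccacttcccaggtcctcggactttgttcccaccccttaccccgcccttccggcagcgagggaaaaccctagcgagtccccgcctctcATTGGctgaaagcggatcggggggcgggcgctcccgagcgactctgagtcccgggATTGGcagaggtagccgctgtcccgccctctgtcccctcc
Mvd: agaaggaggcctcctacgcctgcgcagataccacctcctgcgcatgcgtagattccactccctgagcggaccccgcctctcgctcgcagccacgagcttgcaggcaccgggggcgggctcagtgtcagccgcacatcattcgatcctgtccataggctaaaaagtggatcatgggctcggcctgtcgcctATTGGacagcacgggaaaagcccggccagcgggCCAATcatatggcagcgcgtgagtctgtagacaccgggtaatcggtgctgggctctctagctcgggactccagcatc
Hmgcs1 held 4 matches and Mvd 2. All 16 genes of the list with a promoter held CCAAT, against 42.4% of all genes with a promoter. The share was 44% for genes higher in the ileum by at least 2-fold and 45.9% for the lower ones. All 6 MHC class II genes with a promoter held CCAAT too, as did 11 of 13 cell cycle, 13 of 18 regional transcription factor and 13 of 20 Hox genes. The lowest share of a list was 0%, for calcium and vitamin D. The other 3 motifs were also searched on both strands. TCACNCCAC was found in 1.48% of all genes with a promoter, 4.48% of the higher and 4.92% of the lower genes. In the cholesterol synthesis list, 1 of 16 genes held it. TTTATG, a Cdx motif, was found in 9.3%, 12.7% and 12.6%, and CAAAGTNCA, an Hnf4 motif, in 1.48%, 2.99% and 4.37%. All motifs were chosen with the differences known, and no share was tested.

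MHC class II genes, which present antigen to helper T cells, were higher in the ileum: 5 of 9 rose, all 9 differences were positive and the median was 1.20. Cd74, the invariant chain, read 2894, 3639.8 and 4094 units in duodenum, 3702, 4524 and 4169 in jejunum and 9482, 8889.5 and 7666 in ileum (1.30 ± 0.20, adjusted p = 0.00179). H2-Aa read 1779.7, 2073 and 3021 in duodenum, 2631, 2638 and 2365 in jejunum and 5996, 5206 and 4395 in ileum (1.20 ± 0.21, adjusted p = 0.00444). In both, all ileum pools were above all others. H2-DMb1 rose by 1.27 ± 0.22 (adjusted p = 0.00479), H2-Ab1 by 1.14 ± 0.21 (adjusted p = 0.00938) and H2-DMa by 1.03 ± 0.20 (adjusted p = 0.0115), while H2-Eb1 gave 1.28 ± 0.33 (adjusted p = 0.0647). H2-Eb1 did pass with the filter on low values (adjusted p = 0.0474), adjustment within array sets (adjusted p = 0.036) and without ileum pool 2 (adjusted p = 0.0358). Dim second probe sets gave -0.03 for H2-Aa and -0.33 for H2-Eb1. Summed over the list, the duodenum pools gave 7568 to 10395 units, the jejunum 10100.2 to 10908 and the ileum 18447 to 24693. Values above 0.05 were found for H2-Ab1 without ileum pool 1 (adjusted p = 0.057) and H2-DMa without duodenum pool 1 or ileum pool 1 (adjusted p = 0.0592 to 0.0665). In the fit blocked by 18S class, H2-Ab1 and H2-DMa did not pass (adjusted p = 0.0962 to 0.0982). From the high-18S samples, 1 ileum pool among them, H2-Aa, Cd74 and H2-DMb1 gave 1.21, 1.34 and 1.21 and missed the threshold (adjusted p = 0.0768 to 0.119). In the high-18S samples alone the list median was 1.13 with none of the 9 called, and median centring left 3 called.

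Of 16 B and plasma cell genes, 3 rose and none fell, with a median of 0.56. The B cell receptor chain Cd79b read 103, 109 and 131 units in duodenum and 469, 303 and 389 in ileum (1.61 ± 0.23, adjusted p = 0.00103). The follicle homing receptor Cxcr5 rose by 1.69 ± 0.35 (adjusted p = 0.0183) and the B cell lectin Cd22 by 1.41 ± 0.33 (adjusted p = 0.0419). Cd22 was dim, with means of 11.03 units in duodenum and 59.2 in ileum. Its call did not hold with an offset of 1, median centring, quantile normalization, a replicate block or fewer segments (adjusted p = 0.0541 to 0.181). Of 13 T and intraepithelial lymphocyte genes, granzyme A, Gzma, was the 1 that was called; it was lower in the ileum, at 234, 149 and 97.1 units against 616, 350.5 and 326 (-1.36 ± 0.32, adjusted p = 0.0447), and a second probe set gave 0.61. The median of that list was -0.33. The threshold was missed by Cxcr5 without duodenum pool 1 or 3 or ileum pool 1 or 2 (adjusted p = 0.0563 to 0.0806), Cd22 without duodenum pool 1, 2 or 3 or ileum pool 1 or 3 (adjusted p = 0.0683 to 0.191) and Gzma without duodenum pool 1, 2 or 3 or ileum pool 2 or 3 (adjusted p = 0.0687 to 0.228). Blocking by 18S class took Cd22 and Gzma past 0.05 (adjusted p = 0.218 to 0.238). In the high-18S samples alone, with 1 ileum pool, Cd79b and Cxcr5 gave 1.30 and 1.83 and missed the threshold (adjusted p = 0.127 to 0.128). None was called of 12 myeloid and mast cell genes (median 0.28), 15 chemokines and receptors (0.45) and 15 interferon response and MHC class I genes (-0.07).

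Epithelial defence genes rose in 4 of 8 cases and fell in none, with a median of 1.04. Beside Saa2, they were Duoxa2, the maturation factor of the hydrogen peroxide producing dual oxidase, from 97.1, 96.9 and 103 units to 689, 563 and 1078 (2.73 ± 0.45, adjusted p = 0.00471), the glutathione peroxidase Gpx2 (1.42 ± 0.24, adjusted p = 0.00413) and the peptidoglycan binding protein Pglyrp1 (0.81 ± 0.15, adjusted p = 0.00956). Of 8 Paneth cell products, Mmp7, the protease that activates defensins, rose from 332, 329 and 238 to 891, 969.5 and 732 units (1.48 ± 0.24, adjusted p = 0.00322), with a list median of 0.62. Of 12 goblet cell products, Spink4 rose by 1.10 ± 0.23 (adjusted p = 0.0218) and Retnlb by 0.85 ± 0.19 (adjusted p = 0.0275), with a list median of 0.30. Significance was lost for Pglyrp1 without duodenum pool 2 (adjusted p = 0.06), Spink4 without duodenum pool 1, 2 or 3 or ileum pool 1 or 3 (adjusted p = 0.0588 to 0.109) and Retnlb without duodenum pool 1 or 3 or ileum pool 1, 2 or 3 (adjusted p = 0.0575 to 0.136). With samples blocked by 18S class, Pglyrp1, Spink4 and Retnlb missed the threshold (adjusted p = 0.0523 to 0.18). Among high-18S samples, with ileum pool 2 alone, Duoxa2 and Mmp7 gave 2.33 and 1.66 and missed the threshold (adjusted p = 0.0573 to 0.0822). Median centring ended both goblet cell calls.

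In the muscle of the wall, 3 of 15 smooth muscle genes rose and none fell, with a median of 0.56. Actg2, the actin of visceral muscle, read 1619, 1352 and 1226 units in duodenum and 2769, 3218 and 3727 in ileum (1.20 ± 0.20, adjusted p = 0.00322), while a dim second probe set gave -0.86. Calponin, Cnn1, rose by 1.04 ± 0.16 (adjusted p = 0.00156) and transgelin, Tagln, by 0.98 ± 0.17 (adjusted p = 0.00596). Of 16 epithelial structure genes, the tight junction genes Cldn3 and Cldn7 rose by 0.71 ± 0.17 (adjusted p = 0.0427) and 0.64 ± 0.15 (adjusted p = 0.0489), and Cldn15 fell (-0.87 ± 0.18, adjusted p = 0.016). Keratin Krt19 (0.71 ± 0.18, adjusted p = 0.0695) was not called, but a second probe set was (0.92, adjusted p = 0.0384), and the first passed with the filter on low values, quantile normalization or adjustment within array sets (adjusted p = 0.0167 to 0.0385). Calls did not hold for Cldn3 without duodenum pool 2 or 3 or ileum pool 1, 2 or 3 (adjusted p = 0.0542 to 0.209), Cldn7 without duodenum pool 1, 2 or 3 or ileum pool 1, 2 or 3 (adjusted p = 0.0757 to 0.186) and Cldn15 without duodenum pool 1 or 3 or ileum pool 2 or 3 (adjusted p = 0.0525 to 0.097). The call was lost after blocking by 18S class for Tagln, Cldn3 and Cldn7 (adjusted p = 0.0662 to 0.226). Under median centring, Tagln, Cldn3, Cldn7 and Cldn15 all missed the threshold (adjusted p = 0.0611 to 0.351). The replicate block took Cldn3 and Cldn7 past it as well (adjusted p = 0.0708 and 0.0789). With only the high-18S samples, Cldn15 gave -0.92 and missed the threshold (adjusted p = 0.0971). Of 13 matrix and fibroblast genes (median 0.39), 17 enteric neuron and glia genes (-0.17), 15 cell cycle genes (0.29), 9 crypt and stem cell genes (0.26) and 13 genes of mucin-type glycosylation (0.19), none was called.

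Regional transcription factors were called in 6 of 25 cases, 2 higher and 4 lower, with a median of 0.15. Beside Osr2, the homeobox gene Cdx1 rose from 292, 315 and 353 units to 727, 529.9 and 669 (0.96 ± 0.16, adjusted p = 0.00362). Pdx1, which marks duodenum and pancreas, read 96.5, 94.3 and 100.2 units in duodenum, 11, 15 and 4.5 in jejunum and 2.4, 11.7 and 6.4 in ileum (-2.33 ± 0.27, adjusted p = 0.000107). Zfpm1, a cofactor of GATA factors, read 1618, 1622 and 1617 in duodenum, 1407, 1591 and 2076 in jejunum and 278, 545 and 343 in ileum (-2.07 ± 0.23, adjusted p = 6.68e-05). Pdx1 was high in the duodenum pools alone among these 3 segments, and Zfpm1 overlapped between duodenum and jejunum. Creb3l3, a regulator of apolipoprotein genes, fell (-1.68 ± 0.24, adjusted p = 0.000562) and the xenobiotic receptor Nr1i3 (-1.34 ± 0.27, adjusted p = 0.0128). The test no longer called Nr1i3 without duodenum pool 2 or 3 or ileum pool 1 or 3 (adjusted p = 0.0684 to 0.0765). In the fit blocked by 18S class, Nr1i3 did not pass (adjusted p = 0.115). Other probe sets for Nr1i3 were called in the main fit (-1.66 and -1.53, adjusted p = 0.00345 and 0.00256). From the high-18S samples, 1 ileum pool among them, Pdx1, Creb3l3 and Cdx1 gave -2.03, -1.20 and 0.70 and missed the threshold (adjusted p = 0.0521 to 0.152). Another probe set gave a call for 2 list genes counted as not called: Gata4 (-0.67 ± 0.35, adjusted p = 0.519) fell on a brighter probe set of set B (-2.23, adjusted p = 0.000165; means of 1962 and 399.5 units), and Maf (0.99 ± 0.38, adjusted p = 0.296) rose on one (1.85, adjusted p = 0.00596), while its 2 others gave -0.35 and 0.07 and the set A one passed without ileum pool 3 (adjusted p = 0.0429). None of 33 Hox genes was called, and their differences ran from -0.73 to 1.01 with a median of 0.11.

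**Figure D3:**
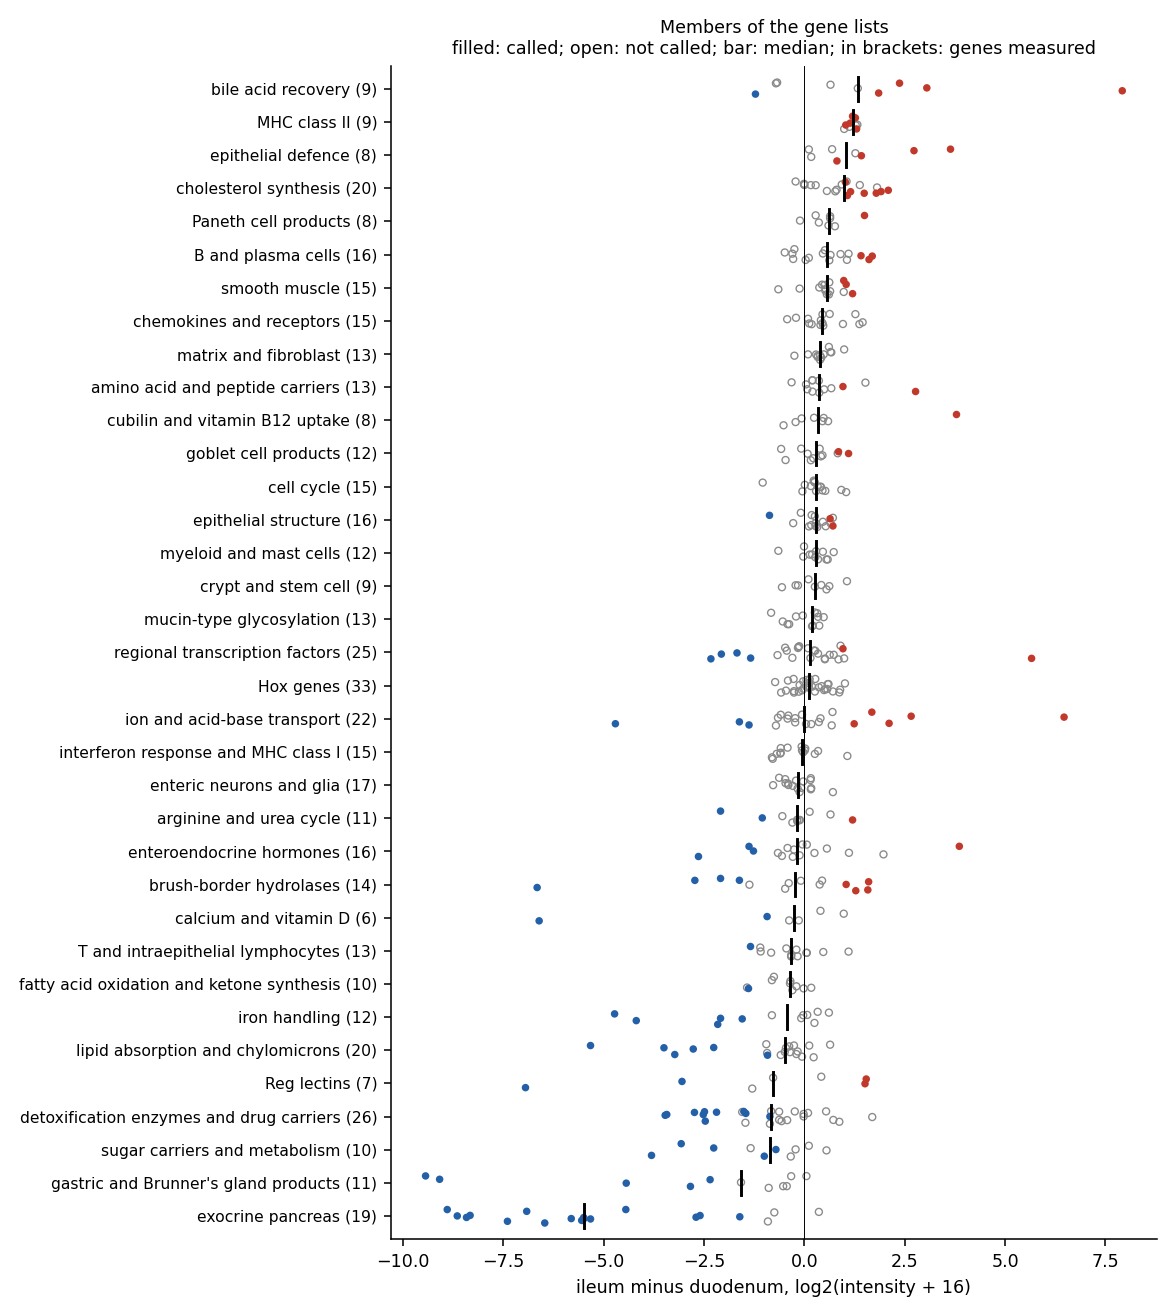
Ileum minus duodenum difference, on log2(intensity + 16), of every measured member of 35 gene lists; filled points were called (red higher, blue lower), open points were not, bars are list medians and the number measured is in brackets. Exocrine pancreas has the lowest median (-5.50) and bile acid recovery the highest (1.33).

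The jejunum was placed on a scale where 0 is the duodenum mean and 1 the ileum mean, for the 582 probe sets called with at least a 2-fold difference. Because the 2 ends chose these probe sets, the position is a description. The jejunum mean lay between the ends for 398 of the 582 (68.4%), against 32.4% of all probe sets. A wide gap between the ends leaves more room between them, so the choice of probe sets itself raises this share. For the 262 that were higher in the ileum, the jejunum resembled the duodenum more often than the ileum: the median position was 0.292, 183 (69.8%) were nearer the duodenum, and the jejunum pools overlapped the duodenum pools alone in 143 and the ileum pools alone in 47. For the 320 that were lower, the split was more even, with a median of 0.416, 171 (53.4%) nearer the duodenum, and overlap with the duodenum alone in 121 and the ileum alone in 111. Jejunum pools stood between the 2 ends without touching either in 41 of the higher and 54 of the lower probe sets.

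**Figure D4:**
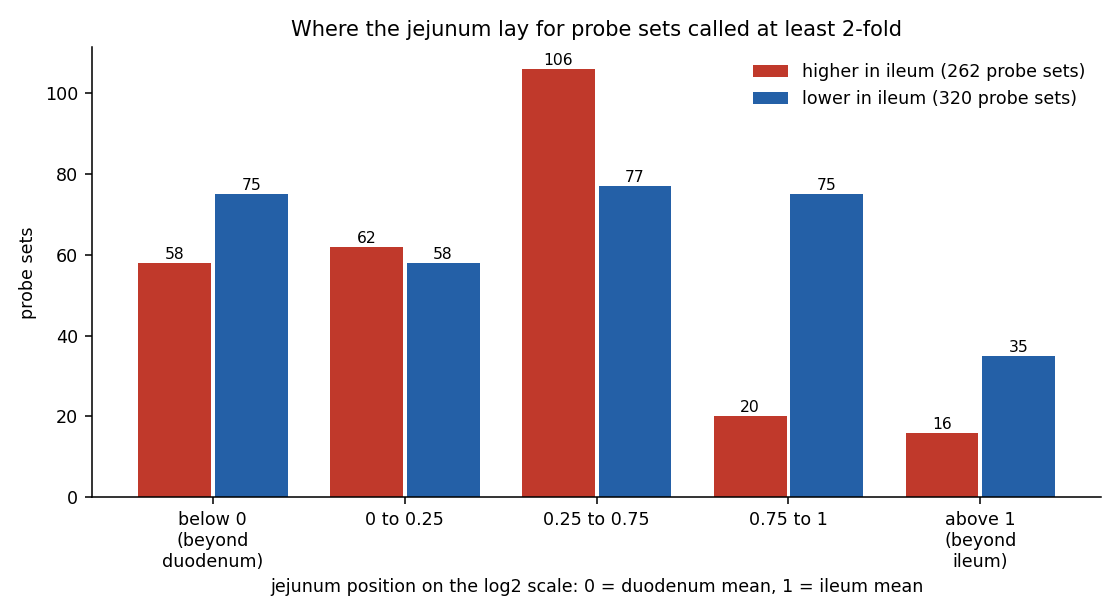
Number of probe sets by the position of the jejunum mean on the log2(intensity + 16) scale, from below 0 (beyond the duodenum) to above 1 (beyond the ileum), for 262 probe sets higher in the ileum (red) and 320 lower (blue). The bin from 0.25 to 0.75, wider than the bins beside it, holds 106 of the higher and 77 of the lower set. The higher set has 58 below 0, 62 at 0 to 0.25 and 20 at 0.75 to 1. The lower set has 75, 58 and 75 in these bins.

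The lower set held both extremes of the scale. Pancreatic and gland genes lay at the ileum end: the positions of Cela3b, Prss2 and Tff2 were 0.94, 1.03 and 1.03. Other genes that were high in the duodenum alone among the 3 segments lay there too, such as S100g at 0.86, Akp3 at 0.93, Car2 at 0.80 and Cybrd1 at 0.96; in the colon Car2 was higher still, at a mean of 5327 units. At the duodenum end lay Fabp1 at 0.03, Slc2a2 at 0.04, Fbp1 at 0.06, Slc46a1 at 0.08, Apoa4 at -0.06 and Zfpm1 at -0.02. Of 215 genes that were lower by at least 2-fold, 23 belong to the pancreas, gland or Reg lists. Among the 192 others, 53 had the jejunum beyond the duodenum, 43 at 0 to 0.25, 53 at 0.25 to 0.75, 30 at 0.75 to 1 and 13 beyond the ileum. Genes with stepwise loss included Reg1 at 0.37, Enpp3 at 0.26, Alpi at 0.54 and Papss2 at 0.54. In the high-18S samples alone, with 1 ileum pool, Cybrd1 and Apoa4 gave -1.66 and -2.02 and missed the threshold (adjusted p = 0.0519 to 0.0623).

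Of the genes that rose, Fabp6, Suox, Tmigd1 and Fgf15 had positions of 0.07, 0.06, 0.04 and -0.03, so their rise lay in the distal step. For Fabp6 the jejunum minus duodenum difference was 0.57 (adjusted p = 0.497) and the ileum minus jejunum difference 7.35 (adjusted p = 4.07e-09). Slc34a2, Nts and Osr2 rose in both steps, with positions of 0.42, 0.60 and 0.66; for Osr2 the steps were 3.76 and 1.91 (adjusted p = 2.72e-06 and 0.00261). Anpep and Cubn rose in the proximal step, with positions of 1.05 and 0.90. Anpep differed by 1.68 between jejunum and duodenum (adjusted p = 4.59e-05) and by -0.08 between ileum and jejunum (adjusted p = 0.914). Over all genes, 239 (1.5%) were called between jejunum and duodenum and 715 (4.48%) between ileum and jejunum; the 2 steps share the jejunum arrays.

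**Figure D5:**
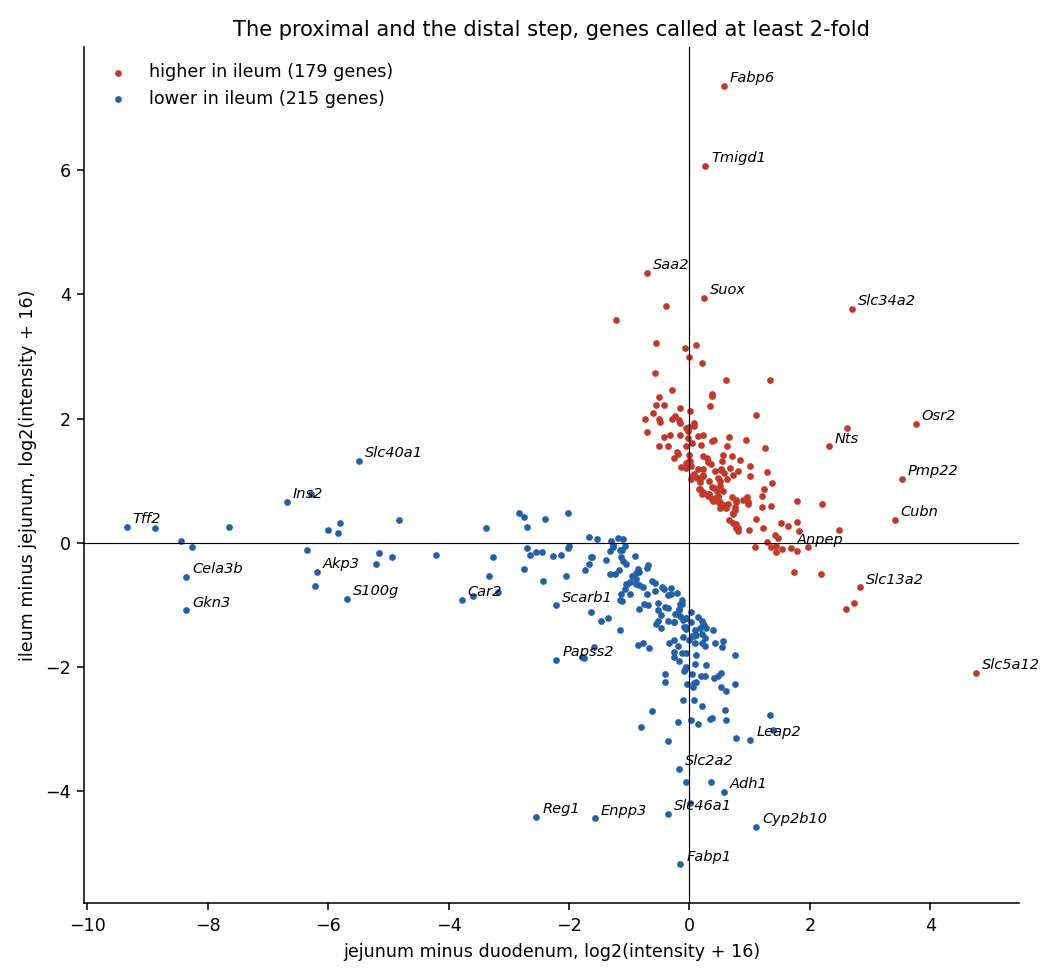
Ileum minus jejunum difference against jejunum minus duodenum difference, both on log2(intensity + 16), for the 179 genes called at least 2-fold higher in the ileum (red) and the 215 lower (blue). Genes near the vertical line changed in the distal step (Fabp1 at -0.15 and -5.18), and genes near the horizontal line in the proximal step (Tff2 at -9.34 and 0.25).

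In 184 of the 582 probe sets the jejunum mean lay outside the range of the ends, by any margin. In 39 (6.7%) its pools were also clear of both ends. Lct, Leap2, Slc22a13 and Cyp2b10 peaked in the jejunum and were lowest in the ileum. Slc22a13, an organic anion carrier, read 669, 857 and 698 units in duodenum, 2021, 1795 and 1857 in jejunum and 279, 283 and 226 in ileum (-1.44 ± 0.19, adjusted p = 0.000366), and Leap2, the peptide that antagonises ghrelin, 1473, 1734 and 1469 in duodenum, 2165, 4186 and 3426 in jejunum and 433, 487 and 175 in ileum (-2.16 ± 0.33, adjusted p = 0.00143). All 3 segments were apart for both. Slc5a12 and Reg3a peaked in the jejunum and were lowest in the duodenum (positions 1.79 and 1.69). Slc40a1 (1.31) and Tmem117 (-0.51) had their minimum in the jejunum. Tmem117 read 67.4, 22.8 and 81.1 units in duodenum, 15.7, 15.4 and 9 in jejunum and 435, 212 and 410.2 in ileum. Values above 0.05 were found for Lct without duodenum pool 1, 2 or 3 or ileum pool 3 (adjusted p = 0.0613 to 0.12), Slc5a12 without ileum pool 1 or 3 (adjusted p = 0.0545 to 0.0657), Reg3a without duodenum pool 2 or 3 or ileum pool 1 (adjusted p = 0.0565 to 0.0709) and Tmem117 without duodenum pool 2 or ileum pool 1 or 3 (adjusted p = 0.0997 to 0.115). The call was lost after blocking by 18S class for Lct, Slc5a12, Reg3a and Tmem117 (adjusted p = 0.0579 to 0.14). Among high-18S samples, with ileum pool 2 alone, Slc22a13 gave -1.33 and missed the threshold (adjusted p = 0.0509).

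The colon gives a further point on the same scale. Of the 320 probe sets lower in the ileum, 254 had a colon mean nearer to the ileum than to the duodenum or beyond it. Of the 262 that were higher, 151 did, among them 86 beyond the ileum, and 54 had a colon mean beyond the duodenum. Fabp6, for example, had a colon mean of 116 units and Slc34a2 of 91.8, far below the ileum, and Saa2 of 3892, above it.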

How the data were processed

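RNA of 4 intestinal segments of mouse, in 3 pools each, was read on 3 sets of Affymetrix arrays, 36 arrays in all. The authors deposited 1 intensity per probe set and array, on a linear scale; in the values, the mean after trimming 2% at each end is 200.0 to 200.2 on every array, and the software is not given in the sources used here. Gene symbols came from the platform annotation through Entrez to RefSeq (GRCm38.p6): of 36701 probe sets without controls, 29131 had 1 symbol, 724 several and 6846 none, and 29044 had a current gene.

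Differences were fitted with limma 3.58.1 (R 4.3.3), 1 fit per array set over its 12 arrays with an intensity trend (8 residual degrees of freedom), on log2(intensity + 16), and adjusted (Benjamini-Hochberg) over the 3 sets together; tests are two-sided. The number of arrays limits the precision: the median residual SD was 0.356, 0.498 and 0.551 on sets A, B and C. The fit was also run on simulated arrays with independent noise, which cannot speak for differences shared by pools or for RNA quality. The comparison, the 35 gene lists and the promoter motifs were chosen with earlier results of these data known. Genes to name came from the 15 largest rises and falls of at least 2-fold with pools apart and a level above the array median. Further sources were the members of lowest adjusted p in each list (6 a list) and all members of 7 lists. The last were up to 8 genes for each jejunum position and outside the range. Not all of these are named: the text gives results for 158 genes, 140 of them called. Mep1b, Car12, Slc9a3, Fdft1, Abcb1a, Abcg2 and genes in the closing part were added after their values were seen. Offsets of 1 and 64, a filter on low values, other scalings, no trend, fewer arrays, blocks for the replicate number and the 18S class, other probe sets and leaving out each pool were tried as alternatives. Replicate numbers did not pair the samples: same-numbered ileum and duodenum residuals correlated at 0.36, 0.23 and 0.01 on set A, 0.19, 0.13 and 0.03 on set B and -0.15, 0.06 and -0.15 on set C.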

Additional observations from a re-analysis of the deposited data

How the results depend on the processing

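All values here are counts of called probe sets or log2 differences. Against 671 calls, there were 383 with only the high-18S samples and 401 to 640 when 1 pool was left out; those higher in the ileum numbered 204 under median centring, 145 with only the high-18S samples and 158 to 321 with 1 pool left out (315 in the text), and those lower 243 to 319 (356 in the text). Other settings gave 519 to 737 calls in all. The share with the jejunum nearer the duodenum, 69.8% of the higher probe sets, was 63.4% under median centring, 77.9% with only the high-18S samples and 63.8% to 72.7% with 1 jejunum pool left out; for the lower ones it was 53.4%, then 59.4% under median centring and 50.9% to 54.1%. Because replicate numbers did not pair the samples, a replicate block is an alternative; it gave 604 calls (279 higher, 325 lower), and with it H2-Eb1 (adjusted p = 0.0114) and Abcb1a (adjusted p = 0.00286) passed.

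Of 140 called genes named, 83 kept the call in every setting of the fit and none turned direction in one. Blocking by 18S class left 108 of them called, median centring 124, the replicate block 136 and leaving out 1 pool 116 to 127. At least 1 other probe set, none of them called, had the opposite sign for Actg2 (-0.86), Bcl2l15 (-0.17), Car4 (-0.22), Chgb (0.73), Cubn (-0.13), Fabp6 (-0.10), Fdps (-0.18, -0.15, -0.53 and -1.32), Fth1 (1.29), Gsdme (-0.05), Gstm1 (0.12 and 0.78), Gzma (0.61), H2-Aa (-0.03), Map3k6 (-0.21), Nts (-0.19), Papss1 (-0.32), Pnliprp1 (0.93), Reg2 (0.88), Slc11a2 (0.27) and Slc2a5 (0.07 and 0.34), and among genes not called for H2-Eb1 (-0.33), Slc43a2 (-0.05), Tcn2 (-0.02) and Maf (-0.35); the cause was not tested. Apoa1, not called, turned to 0.03 under quantile normalization, 0.23 after blocking by 18S class and 0.33 with only the high-18S samples. Of 770 list medians recomputed, 636 moved by less than 1 SD between pools, 134 moved more and 18 changed sign. Signals near the floor of the arrays limit what can be seen of dim genes.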

Other observations

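Carriers of water-soluble vitamins, chosen after their values were seen, differed in both directions. Slc19a3, a thiamine carrier, read 800.3, 601 and 355 units in duodenum, 14.8, 91.5 and 39.8 in jejunum and 13.4, 35.5 and 24.6 in ileum (-3.86 ± 0.48, adjusted p = 0.000441). The reduced folate carrier Slc19a1 fell (-2.09 ± 0.35, adjusted p = 0.00397) and the ascorbate carrier Slc23a2 (-2.07 ± 0.21, adjusted p = 3.01e-05), beside the folate carrier Slc46a1 (-4.73 ± 0.32). Higher in the ileum were the riboflavin carrier Slc52a3, from 1823, 1823 and 1690.5 units to 5894, 5922 and 5595 (1.70 ± 0.20, adjusted p = 7.21e-05), and the biotin and pantothenate carrier Slc5a6 (1.65 ± 0.28, adjusted p = 0.00378). The duodenum and ileum pools did not overlap for any of these carriers, which also holds for all 477 called genes and for 18% of all genes.

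The 2 synthases of the sulfate donor PAPS moved in opposite directions: Papss1 rose from 362, 395 and 445 units to 1341, 1244 and 1410.2 (1.70 ± 0.18, adjusted p = 4.38e-05; a dim second probe set gave -0.32), while Papss2 fell (-4.11). The fatty acid desaturases Scd1 and Scd2 rose by 1.80 ± 0.25 (adjusted p = 0.00068) and 2.67 ± 0.48 (adjusted p = 0.00675), the adhesion molecule Ceacam1 by 1.96 ± 0.17 (adjusted p = 3.23e-06) and the metalloprotease Adamdec1, known from gut macrophages, by 2.18 ± 0.30 (adjusted p = 0.000602). With samples blocked by 18S class, Slc5a6 and Scd2 missed the threshold (adjusted p = 0.0528 to 0.0882). In the main fit, second probe sets gave 2.12 for Scd2 (adjusted p = 0.0163) and 0.34 for Slc5a6 (adjusted p = 0.717). With only the high-18S samples, Scd1 and Adamdec1 gave 1.31 and 1.74 and missed the threshold (adjusted p = 0.0511 to 0.062).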
